A study of Mus musculus with 27 samples.

Results

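A set of 9 granulocyte and mast cell genes of the mouse was followed in bone marrow across 3 Mysm1 genotypes: the eosinophil granule genes Prg2, Epx, Ear1 and Ear2, the basophil protease genes Mcpt8 and Prss34, the mast cell and basophil protease gene Cpa3, and the IgE receptor chain genes Ms4a2 and Fcer1a. The genes were taken from a list of symbols, and every probe that the platform annotation gives to them was used. Of the 9 genes, 7 had such probes, 10 of the 45281 probes on the array. Ear1 and Ear2 were not analysed here, since no probe was paired with either symbol. RNA from bone marrow, liver and brain of C57BL/6 mice was hybridised to Illumina BeadChips, with 3 arrays for each tissue and genotype and 27 arrays in all. The groups were homozygous (Mysm1 tm1a/tm1a), heterozygous (Mysm1 +/tm1a) and wild-type mice, where tm1a stands for the allele Mysm1tm1a(KOMP)WTSI. The labels state neither age nor sex, nor how the marrow was prepared. The design text speaks of comparisons between animals, so each array was counted as a separate animal.

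Eosinophils, basophils and mast cells arise from myeloid progenitors in bone marrow and store cationic proteins and proteases in granules. Their precursors transcribe the granule genes while they mature in the marrow. Mast cells and basophils carry the high-affinity IgE receptor, and its crosslinking by antigen releases the granules. Mast cells finish their maturation in peripheral tissues, so marrow holds mainly their progenitors. Mysm1 encodes a histone H2A deubiquitinase known for its part in blood cell formation.

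The promoter windows of Epx and Prss34 are shown because these genes had the lowest differences of the members in the homozygous group. Each window runs from 250 bases before to 50 bases after the gene's start in RefSeq (GRCm38.p6), 5′ to 3′ on the gene's strand. Epx is on the minus strand at chr11:87875487-87875786 and Prss34 on the plus strand at chr17:25298144-25298443. Capitals mark GATAA or its reverse complement TTATC, the core letters bound by GATA factors. These windows were searched on both strands, and the matches do not overlap.
Epx: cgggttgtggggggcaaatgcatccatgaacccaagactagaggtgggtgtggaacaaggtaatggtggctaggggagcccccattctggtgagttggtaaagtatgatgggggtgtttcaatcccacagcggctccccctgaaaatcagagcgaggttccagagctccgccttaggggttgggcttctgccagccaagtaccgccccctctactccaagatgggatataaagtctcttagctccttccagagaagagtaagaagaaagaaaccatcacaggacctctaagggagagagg
Prss34: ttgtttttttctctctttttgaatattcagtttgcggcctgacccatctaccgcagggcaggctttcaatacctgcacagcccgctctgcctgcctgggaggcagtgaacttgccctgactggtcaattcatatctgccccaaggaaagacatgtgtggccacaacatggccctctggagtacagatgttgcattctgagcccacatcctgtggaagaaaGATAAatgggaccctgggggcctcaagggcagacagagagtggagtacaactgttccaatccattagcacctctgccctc
The Prss34 window held 1 match and the Epx window none. Windows were given for 8 of the 9 member genes, and 6 of those 8 held at least 1 match (Ear1, Ear2, Prss34, Cpa3, Ms4a2 and Fcer1a). Across all 32851 windows of the table the share was 25.4%. A match of letters is a description and not a site. The windows of Ear1 and Ear2 were nearly the same sequence, with 294 of 297 aligned bases identical, and those of Ear1 and Ear10 shared 276 of 297 aligned bases.

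The marrow arrays differed in ways that bear on these genes. The mean raw signal of an array was 102, 138 and 92.1 on the homozygous arrays, 106, 99.3 and 135 on the heterozygous arrays, and 194, 228 and 136 on the wild-type arrays, in order of replicate number. Homozygous replicate 2 carried hepatocyte transcripts: the summed level of 12 hepatocyte genes reached 7715 intensity units on it, with 9 of the 12 detected, against at most 110 on any heterozygous or wild-type array. Correlations between arrays of a group were 0.799 to 0.916 in the homozygous, 0.946 to 0.952 in the heterozygous and 0.968 to 0.990 in the wild-type group. All 3 homozygous marrow arrays were alone on a BeadChip, and the heterozygous and wild-type arrays shared another, so homozygosity and BeadChip cannot be told apart. The Mysm1 probe ILMN_3119954 had log2 intensities of 6.48, 4.88 and 6.95 on the homozygous, 6.35, 6.08 and 6.35 on the heterozygous, and 6.18, 6.29 and 6.40 on the wild-type arrays. In the other tissues the same probe separated the 3 genotypes: after normalisation over all 27 arrays it was 4.47 to 5.44 in homozygous, 6.63 to 6.77 in heterozygous and 7.35 to 7.61 in wild-type liver, and it averaged 5.73 ± 0.045, 6.91 ± 0.13 and 7.59 ± 0.075 in homozygous, heterozygous and wild-type brain (SD, n = 3 each). On homozygous marrow replicates 1 and 3 its level was above all wild-type marrow arrays (difference of the marrow group means -0.18 ± 0.43, SE of limma's fit, adjusted p = 0.792), and the low value was that of replicate 2. Its deposited signal before scaling was 82.9 to 96.8 units on the homozygous, 90.3 to 126 on the heterozygous and 131 to 244 on the wild-type marrow arrays. After normalisation the targeted gene thus goes against the label on replicates 1 and 3, and the 3 arrays are called here the arrays labelled homozygous. Every direction given below for homozygous marrow rests on that label. Of the B cell genes 3 of 6 tested were lower on the arrays labelled homozygous than on wild-type arrays, where 0.875% of all probes passed as lower. These were Cd79b at -3.50 ± 0.32 (SE, limma adjusted p = 0.00167), Vpreb3 at -4.11 (adjusted p = 0.00265) and Igll1 at -2.86 (adjusted p = 0.0207). All 3 genes were lower than on heterozygous arrays as well, where 0.537% of all probes passed as lower. Since the arrays labelled homozygous were alone on their BeadChip, these calls cannot check the label.

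Detection, a comparison with the array's negative control values at p below 0.05, set apart a bright and a dim group of members. Prg2 and Prss34 were detected on 9 of 9 marrow arrays, and Epx and the Cpa3 probe ILMN_2991799 on 8 of 9. Mcpt8, the Cpa3 probes ILMN_1246690 and ILMN_2609590, and the Fcer1a probe ILMN_2863390 were each detected on 5 of 9. The Fcer1a probe ILMN_2771342 was detected on 2 of 9 and the single Ms4a2 probe on 0 of 9. Probes detected on at least 3 marrow arrays were tested, 15087 in all, which left 8 of the 10 member probes and 6 of the 7 genes. Levels below are log2 intensities after background correction and quantile normalisation over the 9 arrays, and levels of different probes are not comparable. Fewer cells of a type and less RNA per cell cannot be told apart in these tissue samples.

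**Figure D1:**
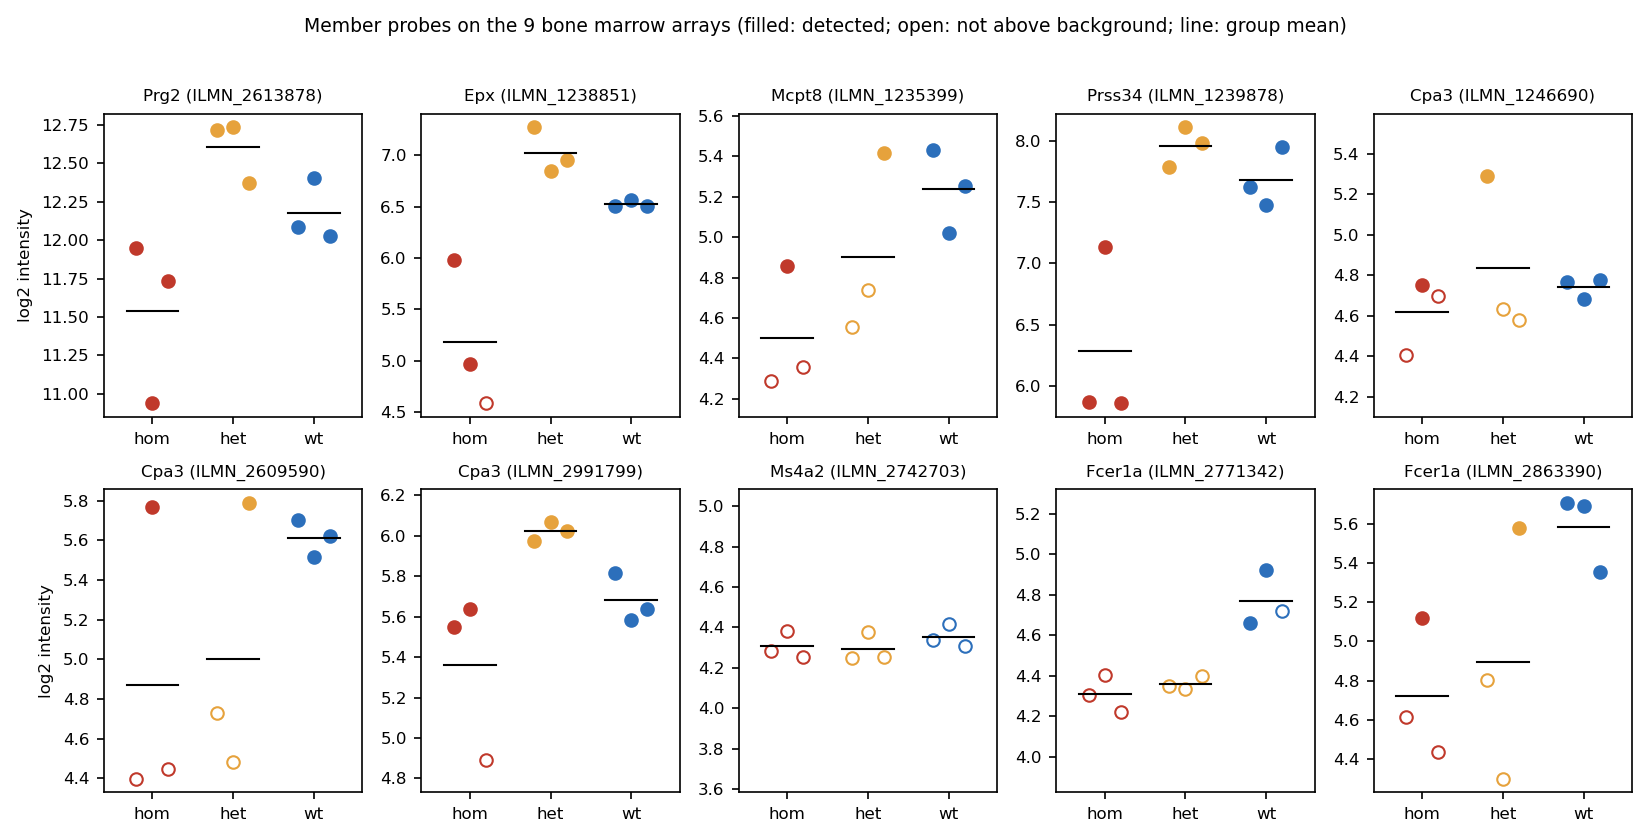
Log2 intensity of the 10 member probes on the 9 marrow arrays, 1 panel per probe, with the arrays labelled homozygous (hom) on the left, heterozygous (het) in the middle and wild type (wt) on the right. Each point is an array (replicates 1 to 3 from left to right), lines are group means, and open points were not above background. Epx, Prg2 and Prss34 are lower on every array labelled homozygous than on every other array, and Ms4a2 is open throughout.

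Among the eosinophil granule genes, Epx, which encodes eosinophil peroxidase, was lower in homozygous than in heterozygous marrow and was the only member probe to pass in any comparison of genotypes. Its level was 5.98, 4.97 and 4.59 on the arrays labelled homozygous, 7.27, 6.85 and 6.95 on the heterozygous, and 6.51, 6.57 and 6.50 on the wild-type arrays. Every array labelled homozygous was below every other array, and on replicate 3 the probe was not above background. The difference was -1.84 ± 0.32 against heterozygous marrow (SE, limma adjusted p = 0.0328), which is 3.59-fold lower. Against wild-type marrow it was -1.35 ± 0.32 (adjusted p = 0.0651) and did not pass. The call against heterozygous marrow was lost with median centring in place of quantile normalisation (-1.39, adjusted p = 1.00), with no filter on dim probes (adjusted p = 0.106), with only the 2 groups in the fit (adjusted p = 0.164), and without any 1 heterozygous or wild-type array (adjusted p 0.0592 to 0.134). Without homozygous replicate 2 it passed against both groups, at -1.73 ± 0.34 against heterozygous (adjusted p = 0.0141) and -1.23 ± 0.34 against wild-type marrow (adjusted p = 0.0231). In that fit 13.9% of all probes passed against heterozygous and 31.9% against wild-type marrow.

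Prg2, which encodes major basic protein of the eosinophil granule core, did not pass in any comparison with all arrays. It had log2 intensities of 11.95, 10.94 and 11.74 on the arrays labelled homozygous, 12.72, 12.73 and 12.37 on the heterozygous, and 12.09, 12.41 and 12.03 on the wild-type arrays. The lowest value was on replicate 2, the array with hepatocyte transcripts, and the other homozygous arrays lay just under the wild-type range. Its difference was -1.07 ± 0.28 against heterozygous (SE, limma adjusted p = 0.120) and -0.63 ± 0.28 against wild-type marrow (adjusted p = 0.176). Without replicate 2 the difference from heterozygous marrow was -0.77 ± 0.22 and passed (adjusted p = 0.0434), as did 13.9% of all probes. The difference from wild-type marrow was then -0.33 ± 0.22 (adjusted p = 0.254). As deposited, before any scaling, the Prg2 signal was 891 to 2242 units on the homozygous, 2915 to 5597 on the heterozygous and 4427 to 13095 on the wild-type arrays, so the order of the heterozygous and wild-type groups depends on the normalisation.

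No other eosinophil gene passed with all arrays. Of 15 listed genes 12 had a probe and 5 were tested. All 5 differences from wild type were negative, with a median of -1.18, against -0.16 over all tested probes, and all 5 differences from heterozygous marrow were negative, with a median of -1.52, against -0.046. Prg3, which encodes a second major basic protein, had levels of 7.60, 5.89 and 6.04 on the arrays labelled homozygous, 8.24, 8.29 and 8.62 on the heterozygous, and 7.96, 8.01 and 7.78 on the wild-type arrays. Its differences were -1.87 ± 0.39 from heterozygous (SE, limma adjusted p = 0.0604) and -1.41 ± 0.39 from wild-type marrow (adjusted p = 0.0830). The eosinophil-associated ribonuclease genes Ear3, Ear6 and Ear10 had every array labelled homozygous below every other array, as Prg3 did. Over all tested probes 20.4% lay wholly below wild type and 10% wholly below heterozygous marrow.

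Ear10 had levels of 5.66, 4.92 and 4.46 on the arrays labelled homozygous, 7.34, 5.85 and 7.17 on the heterozygous, and 6.97, 6.81 and 6.52 on the wild-type arrays, with a difference from wild type of -1.75 ± 0.41 (SE, limma adjusted p = 0.0639). The differences from wild type of Ear6 and Ear3 were -1.18 (adjusted p = 0.0966) and -1.01 (adjusted p = 0.0902). The ribonuclease genes are near copies of each other, so a probe of one may bind transcripts of another, Ear1 and Ear2 included, and their values are uncertain as to the gene. Alox15, a lipoxygenase gene of eosinophils and macrophages, differed by -0.15 (adjusted p = 0.734). The surface marker genes Siglecf and Il5ra were detected on 0 of 9 marrow arrays and Ccr3 on 2 of 9. Without homozygous replicate 2, Prg3, Ear3, Ear6 and Ear10 passed against heterozygous marrow at -0.93 to -1.71 (adjusted p 0.0257 to 0.0358), and against wild type Ear10 (-1.70, adjusted p = 0.0197) and Prg3 (-1.10, adjusted p = 0.0489) passed. In that fit 13.9% of all probes passed against heterozygous marrow, 8.07% as lower. Against wild type 31.9% passed, 19.1% as lower.

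**Figure D2:**
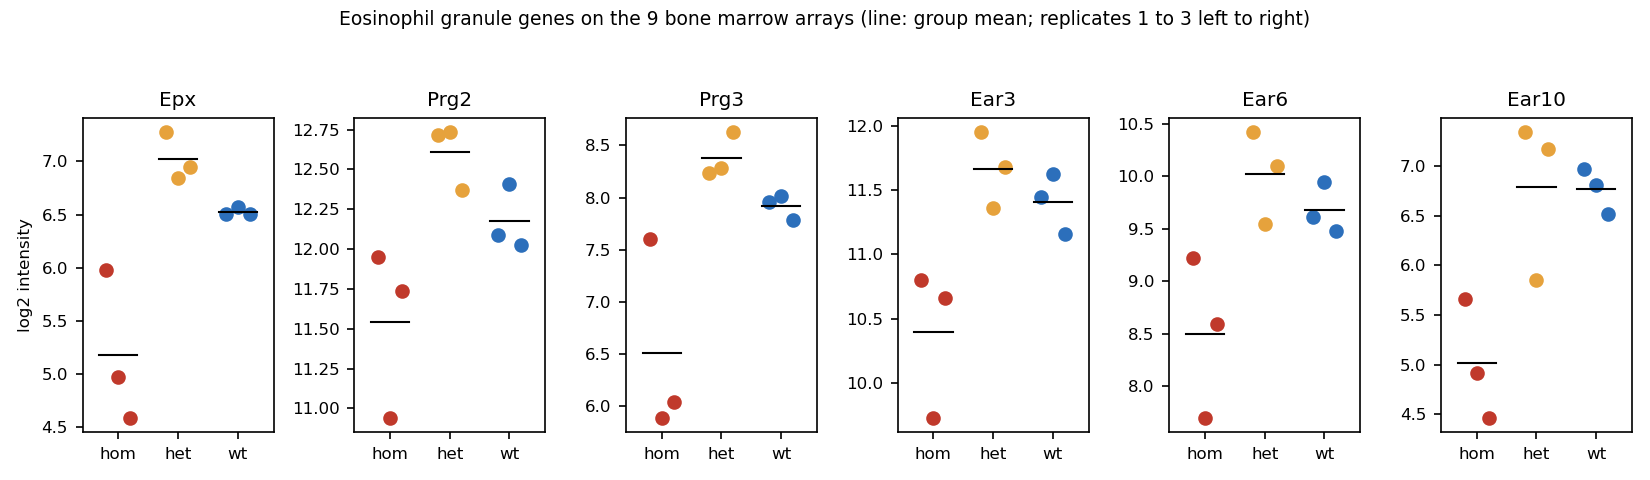
Log2 intensity of Epx, Prg2, Prg3, Ear3, Ear6 and Ear10 on the 9 marrow arrays, with the arrays labelled homozygous (hom) left, heterozygous (het) in the middle and wild type (wt) right, points for arrays in order of replicate number and lines for group means. Each of the 6 genes has its 3 homozygous points below its 6 other points, and homozygous replicate 1 is the highest of the 3. Over all tested probes 20.4% lay wholly below wild type and 10% wholly below heterozygous marrow. Alox15, also tested, is not drawn and overlapped, at 4.52 to 5.14 on homozygous and 4.82 to 5.01 on wild-type arrays.

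Among the basophil protease genes, Prss34, which encodes mast cell protease 11 of mouse basophils, was close to the threshold. It had log2 intensities of 5.87, 7.14 and 5.86 on the arrays labelled homozygous, 7.79, 8.11 and 7.98 on the heterozygous, and 7.62, 7.47 and 7.95 on the wild-type arrays. Replicate 2 was the highest of the homozygous arrays here, the reverse of its place in Prg2, and all 3 were below all other arrays. The difference was -1.67 ± 0.33 from heterozygous (SE, limma adjusted p = 0.0518) and -1.40 ± 0.33 from wild-type marrow (adjusted p = 0.0650), so it passed in neither. Without replicate 2 it passed in both, at -2.10 ± 0.21 (adjusted p = 0.00205) and -1.82 ± 0.21 (adjusted p = 0.00134), where 13.9% and 31.9% of all probes passed.

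Mcpt8, the gene of the basophil granule serine protease mast cell protease 8, was near background. Its levels were 4.29, 4.86 and 4.36 on the arrays labelled homozygous, 4.55, 4.74 and 5.42 on the heterozygous, and 5.43, 5.02 and 5.25 on the wild-type arrays. It was detected on the 3 wild-type arrays, on heterozygous replicate 3 and on homozygous replicate 2. The difference from wild type was -0.73 ± 0.27 (SE, limma adjusted p = 0.127) and that from heterozygous marrow -0.40 ± 0.27 (adjusted p = 0.523). Of the other 7 basophil genes listed, 2 were tested and neither passed. Hdc, the histidine decarboxylase gene that makes histamine in basophils, mast cells and neutrophil precursors, had a positive difference of 0.64 from wild type (adjusted p = 0.154). Il3ra, the receptor chain for the basophil growth factor interleukin 3, differed by -0.32 (adjusted p = 0.403).

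Cpa3, which encodes the carboxypeptidase A3 of mast cell and basophil granules, was read by 3 probes that did not give the same picture. ILMN_2991799, the most often detected, had 5.55, 5.64 and 4.89 on the arrays labelled homozygous, 5.97, 6.07 and 6.02 on the heterozygous, and 5.82, 5.58 and 5.64 on the wild-type arrays. Its homozygous values were below all heterozygous ones and overlapped the wild-type ones, with differences of -0.66 ± 0.23 from heterozygous (SE, limma adjusted p = 0.223) and -0.32 ± 0.23 from wild-type marrow (adjusted p = 0.377). ILMN_2609590 had 4.40, 5.77 and 4.44 on the arrays labelled homozygous, 4.73, 4.48 and 5.79 on the heterozygous, and 5.70, 5.52 and 5.62 on the wild-type arrays. Homozygous replicate 2 and heterozygous replicate 3 read as high as the wild-type arrays, and the other 4 were not above background. ILMN_1246690 lay between 4.41 and 5.29 on all 9 arrays, with overlapping groups and a difference from wild type of -0.12 ± 0.23.

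The IgE receptor chains were at the edge of detection. Fcer1a, the gene of the chain that binds IgE, had levels of 4.61, 5.12 and 4.44 on the arrays labelled homozygous, 4.80, 4.30 and 5.58 on the heterozygous, and 5.71, 5.69 and 5.36 on the wild-type arrays with probe ILMN_2863390. The difference from wild type was -0.86 ± 0.32 (SE, limma adjusted p = 0.129) and that from heterozygous marrow -0.17 ± 0.32 (adjusted p = 0.855). The second Fcer1a probe was above background on 2 wild-type arrays alone, with 4.22 to 4.40 on the arrays labelled homozygous, 4.33 to 4.40 on the heterozygous and 4.66 to 4.92 on the wild-type arrays, and was not tested. Ms4a2, the gene of the receptor's signal-amplifying chain, averaged 4.31 ± 0.07, 4.29 ± 0.07 and 4.36 ± 0.06 in the homozygous, heterozygous and wild-type groups (SD, n = 3 each) and was not well above background on any array.

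Mature mast cell genes were mostly absent from the detected probes. Of 17 other mast cell genes listed 15 had a probe and 3 were tested, with 0 past the threshold. Cma1, Tpsb2, Tpsab1, Mcpt2 and Mcpt4, which encode mast cell chymases and tryptases, were detected on 0 of 9 arrays. Kit, the stem cell factor receptor of mast cells and of many marrow progenitors, differed from wild type by -0.58 ± 0.40 (SE, limma adjusted p = 0.363). It passed without homozygous replicate 2 (-1.04, adjusted p = 0.0291), as did 31.9% of all probes. Rab27b, a granule secretion gene, and Mitf, a mast cell transcription factor gene, differed by 0.60 (adjusted p = 0.274) and 0.042 (adjusted p = 0.936).

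Over the whole list, all 8 tested member probes had a negative difference in both comparisons of homozygous marrow, as did 61.8% of all probes against wild type and 55% against heterozygous marrow. Against wild type 0 of 8 passed at an adjusted p below 0.05 (5 had an unadjusted limma p below 0.05), where 1.13% of all probes passed, 0.875% as lower, and 26.6% had an unadjusted p below 0.05. The arrays labelled homozygous lay wholly below the wild-type arrays for 5 of 8 probes (Prg2, Epx, Prss34, Mcpt8 and Fcer1a ILMN_2863390), against 20.4% of all probes. Mcpt8, Fcer1a ILMN_2863390 and the Cpa3 probes ILMN_2609590 and ILMN_1246690 met the detection filter only through the wild-type arrays. Their part in these counts against wild type was favoured by the filter and lends no support to a difference by genotype. The members' median difference was -0.74, against -0.16 over all probes. Against heterozygous marrow 1 of 8 passed, where 0.716% of all probes passed and 0.537% passed as lower. There 4 of 8 lay wholly below (Prg2, Epx, Prss34 and Cpa3 ILMN_2991799), against 10% of all probes, and the medians were -0.53 and -0.046.

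**Figure D3:**
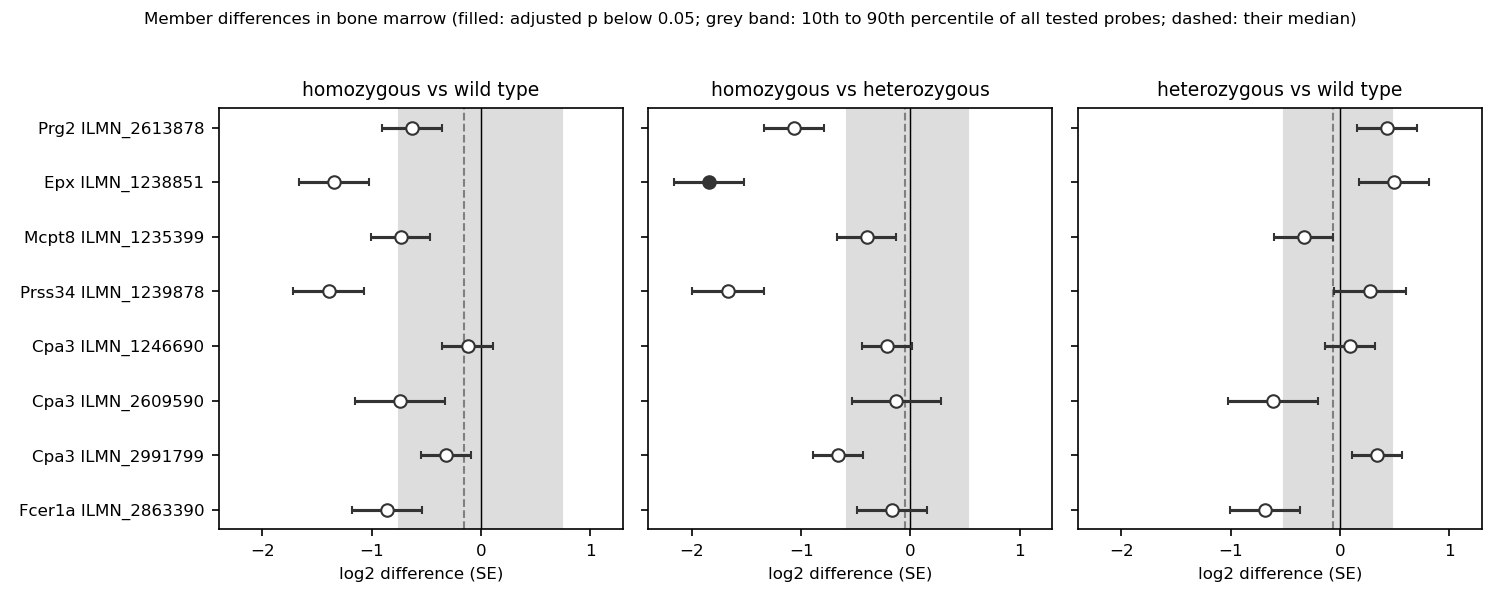
Log2 difference of each tested member probe with its standard error, for homozygous against wild type (left), homozygous against heterozygous (middle) and heterozygous against wild type (right). Grey bands span the 10th to 90th percentile of all tested probes, dashed lines their median, and filled points have an adjusted p below 0.05. Epx in the middle panel is the single filled point, and all points of the left and middle panels lie below 0.

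Leaving out homozygous replicate 2 changed calls across the whole array as well as those of the members, and left the homozygous group with the pair of arrays on which the Mysm1 probe goes against the label. Against wild type 5 of the 8 member probes then passed (Epx, Prss34, Mcpt8, Cpa3 ILMN_2609590 and Fcer1a ILMN_2863390), where 31.9% of all 14284 probes tested passed and 19.1% passed as lower. The differences of these 5 ran from -0.90 to -1.82. Of them, Mcpt8, Cpa3 ILMN_2609590 and Fcer1a ILMN_2863390 were then above background on no array labelled homozygous. These dim probes met the filter only through the wild-type arrays and heterozygous replicate 3. Their calls set wild-type arrays against background on dimmer arrays and lend no support to a difference by genotype. Against heterozygous marrow 4 of 8 passed (Epx, Prss34, Prg2 and Cpa3 ILMN_2991799), where 13.9% of all probes passed and 8.07% passed as lower. The members' medians were -0.97 against wild type and -0.67 against heterozygous marrow, beside -0.23 and -0.12 over all probes.

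Array brightness moved with part of these results. Heterozygous replicates 1 and 2 had mean raw signals of 106 and 99.3, close to 102 and 92.1 on homozygous replicates 1 and 3. On these 4 arrays Epx had 5.98 and 4.59 on the homozygous ones, against 7.27 and 6.85 on the heterozygous ones. Prss34 had 5.87 and 5.86 on the same homozygous arrays, against 7.79 and 8.11 on the heterozygous ones. Mcpt8 had 4.29 and 4.36, against 4.55 and 4.74, and it was detected on none of the 4, as were Cpa3 ILMN_2609590 and Fcer1a ILMN_2863390. These 3 probes were detected on the 5 brightest arrays and on no other. For them a difference by genotype and a difference by array brightness cannot be told apart.

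With the mean raw signal of the array as a covariate (a setting added once the values had been seen), the difference of homozygous from heterozygous marrow was -1.84 for Epx (limma adjusted p = 0.0322) and -1.65 for Prss34 (adjusted p = 0.0487). Against wild type no probe of the 15087 passed in that fit, and the differences were -1.33 for Epx, -1.10 for Prss34, -0.34 for Mcpt8, -0.032 for Fcer1a ILMN_2863390 and 0.21 for Cpa3 ILMN_2609590. The wild-type arrays ranked 1, 2 and 4 in brightness among the marrow arrays. Against wild type that fit therefore cannot separate brightness from genotype, for any of these probes.

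**Figure D4:**
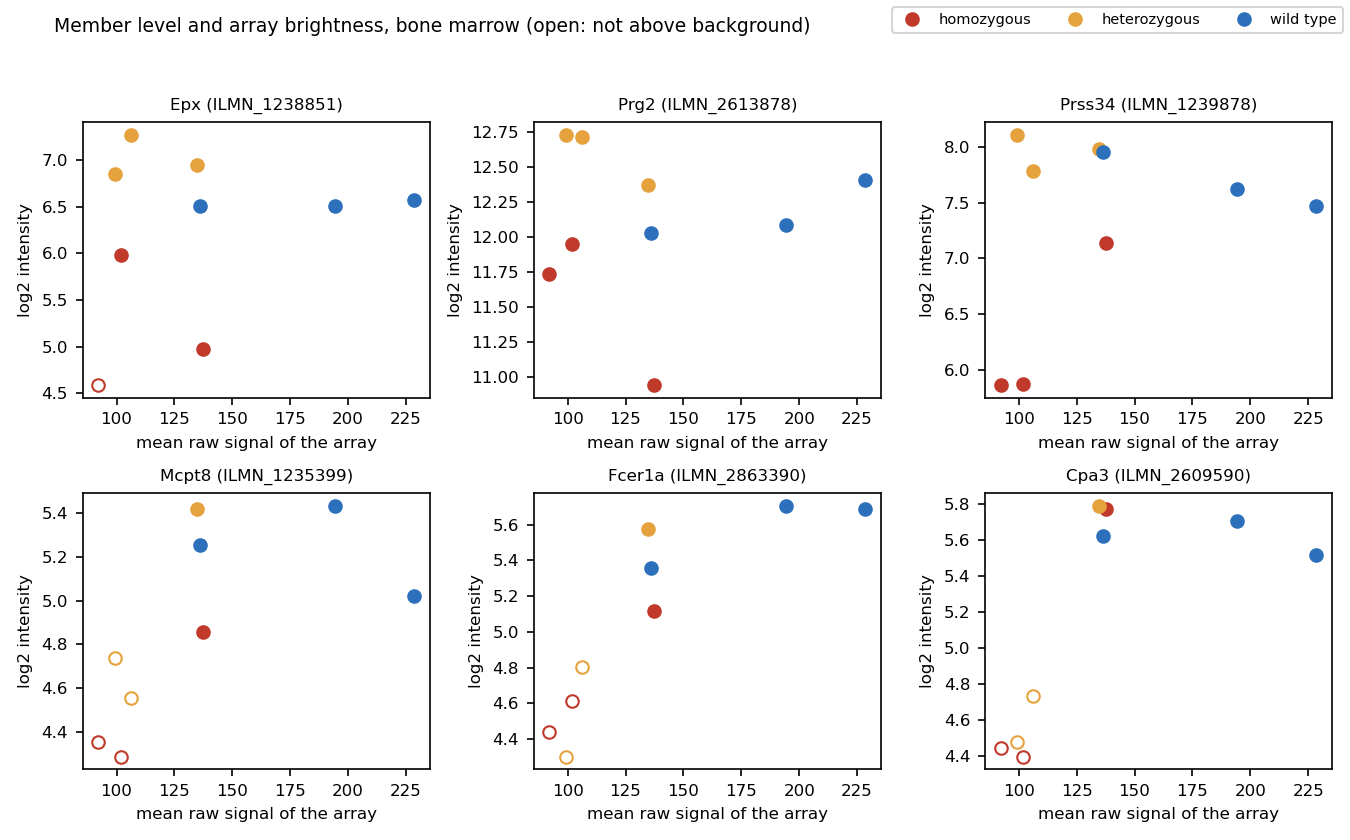
Log2 intensity of 6 member probes (vertical axis) against the mean raw signal of the marrow array (horizontal axis, linear intensity units), 1 point per array, red for arrays labelled homozygous, orange for heterozygous and blue for wild type, open where not above background. In the lower row (Mcpt8, Fcer1a, Cpa3) the 4 dimmest arrays are open in both genotypes, while in the upper row (Epx, Prg2, Prss34) the homozygous points lie under heterozygous points of like brightness.

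In heterozygous against wild-type marrow, which shared a BeadChip, no member passed, and 0 of 15087 probes did (1511, or 10%, had an unadjusted limma p below 0.05). Epx had a difference of 0.50 ± 0.32 (SE, adjusted p = 0.608) with all heterozygous arrays above all wild-type ones, and Prg2 one of 0.43 ± 0.28 (adjusted p = 0.607). Cpa3 ILMN_2991799 was likewise above on every array, at 0.34 ± 0.23. Such separation was seen for 11.5% of all probes. The 5 positive differences (Prg2, Epx, Prss34 and 2 Cpa3 probes) became negative with median centring, -0.14 to -1.19, so their sign rests on the quantile normalisation. The 3 dim probes Mcpt8, Cpa3 ILMN_2609590 and Fcer1a ILMN_2863390 had negative differences of -0.33, -0.61 and -0.69.

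Across tissues most members were highest on the marrow arrays. All marrow arrays were on other BeadChips than the liver and brain arrays. Their mean raw signals were 92.1 to 228, against 282 to 373 on the liver and brain arrays. Tissue, BeadChip and brightness thus cannot be told apart. After normalisation over all 27 arrays, Prg2 averaged 13.36 ± 0.15 in wild-type marrow, 4.69 ± 0.35 in wild-type liver and 4.40 ± 0.04 in wild-type brain (SD, n = 3 each). It was above background on 1 of 3 liver and 0 of 3 brain arrays of the wild type. The difference from liver was 8.67 ± 0.21 log2 units (SE), taken against a level mostly at background, and the level in marrow was at least 411-fold higher than in brain. Where a probe was not above background on any array of the dim group, the fold is a lower bound against the lowest detected signal of those arrays or the probe's own, whichever is higher. Prss34 was at least 23.8-fold higher in marrow than in liver and at least 30.3-fold higher than in brain, and Epx at least 9.75-fold and 12.4-fold. For Mcpt8 the bounds were 2.87-fold and 3.67-fold, and for Fcer1a ILMN_2863390 they were 4.23-fold and 5.40-fold. These bounds hold only on the scale of all 27 arrays. Mcpt8 averaged 6.56 in wild-type marrow on that scale and 5.24 after normalisation of the marrow arrays alone. Its raw signal was 91.1 to 125 in wild-type marrow and 89.3 to 96.4 in wild-type liver, ranges that overlap.

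Epx, Mcpt8, Cpa3 ILMN_2609590 and Fcer1a ILMN_2863390 were detected on 0 of 9 liver and 0 of 9 brain arrays. They entered the fit through marrow alone, so their higher level there was fixed by the filter and no test of it is given. Cpa3 ILMN_1246690, detected on 2 of 9 liver and 4 of 9 brain arrays, differed by 0.53 ± 0.31 between wild-type marrow and liver (SE, limma adjusted p = 0.189) and by 0.75 ± 0.31 between wild-type marrow and brain (adjusted p = 0.0466). Ms4a2 was not above background on any of the 27 arrays.

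**Figure D5:**
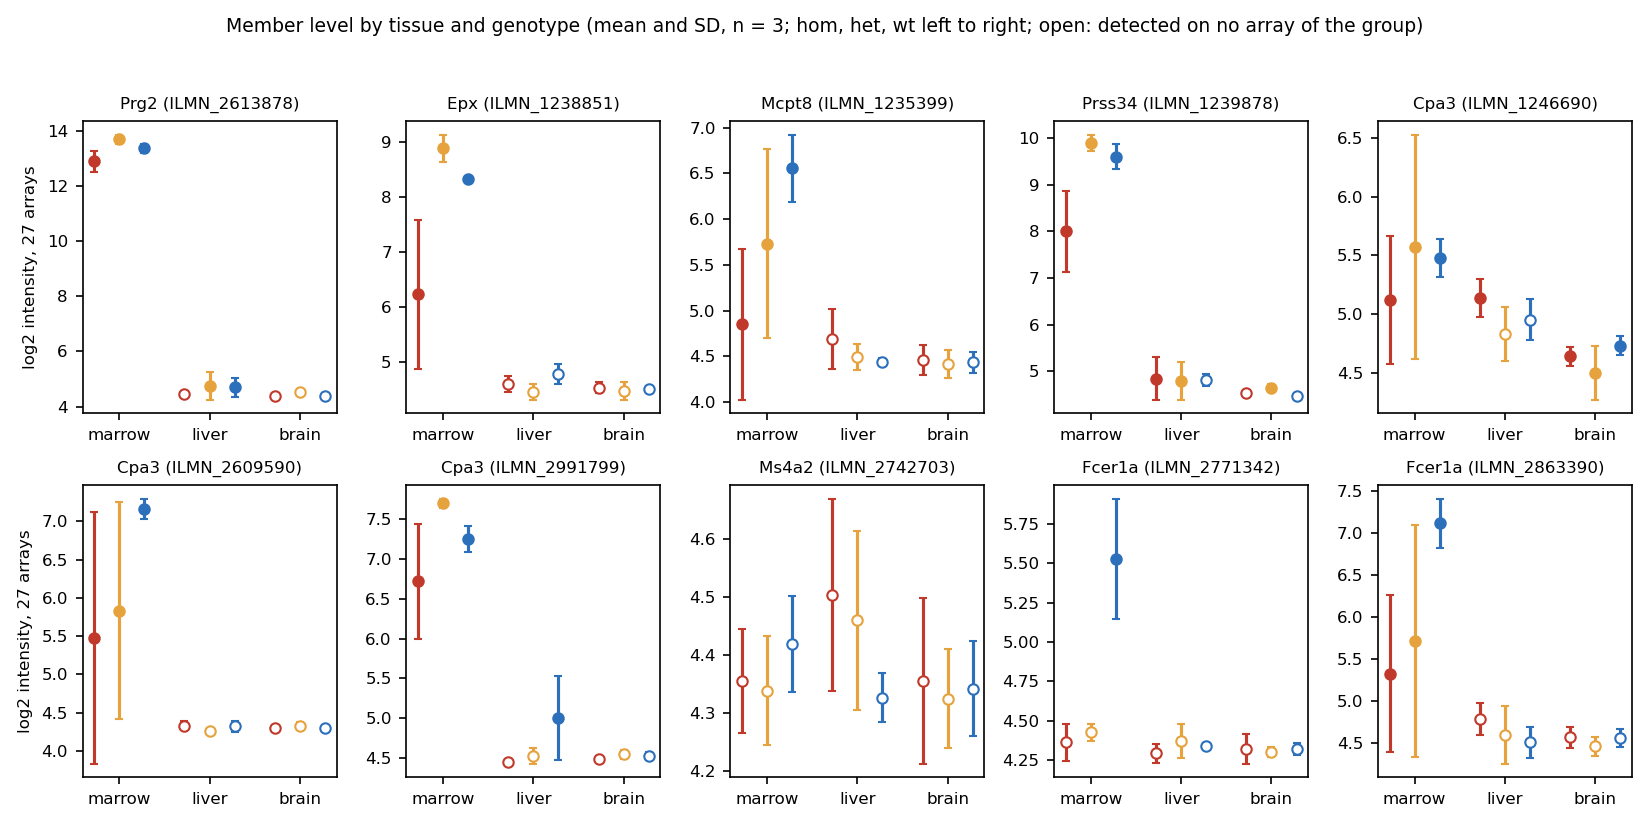
Mean log2 intensity with SD (n = 3) of the 10 member probes in marrow, liver and brain after normalisation over all 27 arrays, with homozygous, heterozygous and wild type from left to right in each tissue. Open points were detected on no array of their group. In the wild type, the marrow mean stands above those of liver and brain for every probe. For Ms4a2 (4.42, 4.33 and 4.34) the single arrays overlap and none was above background.

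An interaction term over all 27 arrays set the difference between homozygous and wild type in marrow against that in liver or brain, and passed for 14.3% and 10.1% of all probes. For the 4 members detected on no liver or brain array no difference could be read there. Their terms thus restate the marrow difference on the scale of all 27 arrays and do not show one between tissues. That scale gave larger differences: for Epx -2.09 between homozygous and wild-type marrow, against -1.35 after normalisation of the marrow arrays alone. Those of Epx were -1.91 ± 0.52 against liver (SE, limma adjusted p = 0.0192) and -2.11 ± 0.52 against brain (adjusted p = 0.0139). Prss34, detected on 2 of 9 liver and 1 of 9 brain arrays and so also near background there, gave -1.63 ± 0.42 (adjusted p = 0.0141) and -1.68 ± 0.42 (adjusted p = 0.0147). Prg2 had terms of -0.23 (adjusted p = 0.644) and -0.46 (adjusted p = 0.348). Without homozygous marrow replicate 2 the terms of Prss34 were -2.14 (adjusted p = 1.89e-05) and -2.19 (adjusted p = 1.61e-05), where 33.9% and 29.9% of all probes passed.

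Genes that act upstream of these cells were read from lists. Among transcription factors of the granulocyte and mast cell lineages, 13 of 15 were tested, and Irf8 was the one that passed with all arrays. Over all probes 1.13% passed against wild type and 0.716% against heterozygous marrow. Irf8 is a factor of the monocyte, eosinophil, basophil and B cell branches, and 3 of 6 tested B cell genes were also lower. Irf8 was at 5.44, 5.70 and 5.52 on the arrays labelled homozygous, 6.80, 7.15 and 6.91 on the heterozygous, and 7.06, 6.79 and 6.70 on the wild-type arrays. It was lower in homozygous marrow, with differences of -1.40 ± 0.20 from heterozygous (SE, limma adjusted p = 0.0136) and -1.30 ± 0.20 from wild-type marrow (adjusted p = 0.0179), with no overlap and with little spread among the homozygous arrays. Without homozygous replicate 2 Irf8 passed in both comparisons, Ikzf1, which encodes the lymphoid and myeloid factor Ikaros, did so as well (-0.84 from heterozygous, adjusted p = 0.0245, and -0.62 from wild type, adjusted p = 0.0389), Spi1, the gene of PU.1, passed against wild type (-1.32, adjusted p = 0.00363), and Gfi1, a granulocyte repressor gene, passed against heterozygous marrow (-1.19, adjusted p = 0.0244). Without that replicate 31.9% of all probes passed against wild type and 13.9% against heterozygous marrow. Spi1 was at 4.66, 5.80 and 4.34 on the arrays labelled homozygous and 5.11, 4.84 and 5.44 on the heterozygous arrays. On the wild-type arrays Spi1 was at 5.72 to 5.98. In the homozygous and heterozygous groups its highest value was on the brightest array, and the part of brightness was not tested for it. Gata1 and Gata2, whose products drive eosinophil, basophil and mast cell genes, differed from wild type by -0.21 (adjusted p = 0.499) and 0.19 (adjusted p = 0.618).

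Of 20 cytokine and receptor genes 6 were tested and 0 passed against either group. The smallest p-values against wild type were those of Jak2 (-0.40, limma adjusted p = 0.201) and Stat5a (-0.92, adjusted p = 0.213), both of which carry interleukin 3 and interleukin 5 signals. Without homozygous replicate 2, Stat5a (-1.38, adjusted p = 0.0185) and Kit passed against wild type, where 31.9% of all probes did. On replicate 2 Stat5a was at 6.03 and Kit at 6.48, beside 5.92 to 6.05 and 5.97 to 6.24 on the wild-type arrays. Of 14 genes of IgE receptor signalling 10 were tested and 0 passed. Lat, an adaptor, differed by 0.81 (adjusted p = 0.0859) and Inpp5d, the inositol phosphatase SHIP1, by -0.87 (adjusted p = 0.110). Both passed without homozygous replicate 2, Lat at 0.96 (adjusted p = 0.0107) and Inpp5d at -1.23 (adjusted p = 0.00291). Inpp5d was at 4.75, 5.61 and 4.28 on the arrays labelled homozygous and 5.73 to 5.79 on the wild-type arrays. The part of array brightness in these calls was not tested. Fcer1g, the shared signalling chain that other Fc receptors of myeloid cells also use, was bright on all 9 arrays and differed by 0.17 ± 0.20 (SE, adjusted p = 0.605).

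Genes of other marrow cell types differed in both directions beside the members. Of the neutrophil genes, none of the 5 primary granule genes or the 8 genes of the secondary granule list passed against wild type. With all arrays 12 of the 13 differences were positive, where 61.8% of the differences of all probes from wild type were negative. Without homozygous replicate 2 the differences in the primary list ran from -0.35 to 0.15. Those in the secondary list then ran from -0.04 to 0.61. The summed level of the secondary granule list was 62072 to 79759 on the arrays labelled homozygous, 50161 to 55424 on the heterozygous and 47084 to 52658 on the wild-type arrays. That list also holds S100a8 and S100a9, which are not secondary granule genes. S100a8 contributed most to the sum, at log2 14.67 to 15.21, 14.52 to 14.60 and 14.34 to 14.52 on the same groups. The primary granule sum was 4009 to 15178, 5653 to 6314 and 3768 to 6355, and the groups overlapped. The summed level of the 12 other eosinophil genes was 1129 to 2604, 3731 to 5772 and 3302 to 4510 on the same groups. Ear3 contributed most to it, at log2 9.73 to 10.80, 11.36 to 11.95 and 11.16 to 11.63, and Ear6 came next. Which ribonuclease gene these probes read is uncertain, and 5 of the 12 genes were tested, so the sum is mainly a reading of these probes. Neither the eosinophil sum nor the sum of the secondary list overlapped between the homozygous and the other arrays. The eosinophil sum lay below and the sum of the secondary list above. Of all single probes 20.4% lay wholly below wild type and 10% wholly below heterozygous marrow. In the megakaryocyte list Itga2b (1.79 ± 0.22, SE, limma adjusted p = 0.00581) and Ppbp (1.84 ± 0.38, adjusted p = 0.0495) were higher than in wild type. In the monocyte and macrophage list 1 of 8 tested genes passed: F13a1, which encodes the A chain of coagulation factor XIII, was lower in homozygous marrow, at -1.33 ± 0.24 from heterozygous (SE, limma adjusted p = 0.0386) and -1.51 ± 0.24 from wild type (adjusted p = 0.0203). No gene of the erythroid (6 tested), T and NK cell (4 tested) or stroma and fat list (8 tested) passed against wild type. Beside these counts, 1.13% of all probes passed against wild type and 0.716% against heterozygous marrow. The part of these genes in the members' levels was not tested.

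Profiles nearest to 4 members over the 9 marrow arrays were listed by the root mean square difference of centred log2 levels, which describes likeness and nothing of function. For Epx the nearest gene was Prg3 (0.25 log2 units), then Pld4 (0.29) and Usp18 (0.35), where Epx itself had an SD of 0.91 over the arrays. Pld4 was lower in both comparisons of homozygous marrow, at -1.73 (limma adjusted p = 0.00666) and -1.41 (adjusted p = 0.0172). For Prss34 they were Ankrd11, H2-DMb2 and Ivns1abp (0.20 to 0.22). For Prg2 they were Gigyf1, Plekha2 and Gab3 (0.21 to 0.24), and for Mcpt8 they were Gstm5, Dtd1 and Ndufaf2 (0.12 to 0.14, against its own SD of 0.43). No other member was among the 3 nearest of any of the 4.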

How the data were processed

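Total RNA of marrow, liver and brain was hybridised to Illumina BeadChips. The deposited scanner table gave, per the file headers, a mean intensity, a bead count as a score and a detection p-value per probe. Per the submitters' processing notes BeadStudio and limma were used, without versions. The authors' second table holds linear intensity values within 2.29% of a quantile normalisation of the scanner signals over 27 arrays. Each of its 27 columns ranked probes most like its own scanner column (20 by linear correlation), and column medians were 85.4 to 85.6.

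Signals of the 9 marrow arrays were processed with limma 3.58.1 (R 4.3.3): neqc with offset 16, log2, probes with detection p below 0.05 on at least 3 arrays, lmFit and eBayes over the 3 genotypes, two-sided, Benjamini-Hochberg adjustment over all 15087 probes, threshold 0.05. Tissue and interaction terms came from all 27 arrays (25195 probes). Each probe was tested on its own, and lists used the brightest probe of a gene. Gene names came from the platform annotation: 34885 probes have 1 symbol, 18 several and 10378 none. The fit was tested on simulated data. Members, lists and comparisons were chosen with earlier results of these data known. Named genes are the members, Mysm1, and per list up to 4 genes past the threshold with the smallest p against wild type, or the 2 with the smallest p, except that lists of other cell types with no such gene are given by counts. For Epx, Prg2, Mcpt8 and Prss34 the 3 nearest profiles are named too. Genes named beyond these (the chymases, tryptases and surface markers given by detection, Ear3, Ear6, Alox15, Mitf, Gata1, Gata2, Fcer1g, S100a8 and S100a9) were added after their values were seen. So were Ikzf1, Spi1 and Gfi1, for their calls without homozygous replicate 2. Same-numbered arrays of different genotypes did not all deviate together (correlations -0.48 to 0.42), so the numbers were not taken as pairs. The number of arrays limits the precision.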

Additional observations from a re-analysis of the deposited data

Results flagged for a closer look

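An interaction term of limma over 27 arrays, which sets the difference between homozygous and wild type in marrow against that in liver or brain, passed for 4 member probes against liver and for 3 against brain. Against liver the terms were -1.91 for Epx, -1.96 for Mcpt8, -1.63 for Prss34 and -2.07 for Fcer1a ILMN_2863390. Against brain they were -2.11 for Epx, -1.73 for Mcpt8 and -1.68 for Prss34. Epx, Mcpt8 and Fcer1a ILMN_2863390 were detected on no liver or brain array and Prss34 on few, so no difference could be read there. The terms restate the marrow difference on the scale of all 27 arrays. On it that difference was -2.09 for Epx, -1.71 for Mcpt8, -1.60 for Prss34 and -1.79 for Fcer1a ILMN_2863390. After normalisation of the marrow arrays alone the values were -1.35, -0.73, -1.40 and -0.86, and none of them passed.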

How the results depend on the processing

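Of 456 member differences under alternative settings, 401 kept their direction and their side of the threshold, 9 lost a call, 31 gained one and 15 changed sign. All 9 lost calls were Epx against heterozygous marrow. The counts of passing probes moved more than the members. Against wild type 171 probes passed, and the count was 710 with median centring, 78 with probes detected on all 9 arrays, 9380 with array weights, 36 with only the 2 groups, 6776 with all 27 arrays fitted together, 0 with mean raw signal as a covariate, and 21 to 4554 without 1 array. Against heterozygous marrow 108 passed, against 0 with median centring, 3436 with weights, 28 with only the 2 groups, 3623 with 27 arrays, and 31 to 1980 without 1 array. For heterozygous against wild type 0 passed, against 1863, 212 and 2966 with weights, 2 groups and 27 arrays. Interaction calls ran from 1967 to 8566 against liver and from 1340 to 7564 against brain without 1 array. The highest counts in each of these ranges came without homozygous marrow replicate 2, the array with hepatocyte transcripts. The interaction ranges keep the normalisation and filter of all 27 arrays, and with both redone without that array the counts were 8500 and 7495.

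The numbers do not pair the samples. With the replicate block 53, 0 and 55 probes passed for homozygous against wild type, heterozygous against wild type and homozygous against heterozygous, 11172 and 13654 for wild-type marrow against liver and brain, and 3480 and 2470 for the interactions. Arrays did not in every case correlate best with their own number.

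Sign changes with median centring, all for heterozygous against wild type, were -0.91 for Prg2, -0.79 for Epx, -1.19 for Prss34, -0.14 for Cpa3 ILMN_1246690 and -0.64 for Cpa3 ILMN_2991799. With the covariate they were 0.21 for Cpa3 ILMN_2609590 against wild type, and for heterozygous against wild type 0.038 for Mcpt8, 0.28 for Cpa3 ILMN_2609590 and 0.088 for Fcer1a ILMN_2863390. Without 1 array, Cpa3 ILMN_1246690 ranged from -0.14 to 0.22 for heterozygous against wild type, and against heterozygous marrow it ranged from -0.35 to 0.015, Cpa3 ILMN_2609590 from -0.57 to 0.27 and Fcer1a ILMN_2863390 from -0.49 to 0.17. The cause was not tested. With 3 arrays a group, dim probes near background limit what can be read.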
